A study of Mus musculus with 18 samples.

Results

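The genes of the mouse major histocompatibility complex (MHC) and of antigen presentation were compared between the strains DBA/2J and C57BL/6J in brain, kidney and liver. Members were the rows (spots) of the array whose annotated symbol starts with H2- or is B2m, Tap1, Tap2, Tapbp, Cd74, Ciita, Nlrc5, Calr, Canx, Pdia3, Erap1, Ctss, Cd1d1 or Mr1. The rule found 47 of the 21765 rows with a value. Of these, 46 carried a single symbol, for 39 genes in all, and 1 carried several symbols and is described without a gene name. No row was named Nlrc5. The members held 18 class I rows, 14 class II rows, 8 rows of class I helpers, 3 of class II helpers, 2 of MHC-like molecules, and 1 of H2-Ke6, a dehydrogenase gene of the region that presents no antigen. Where a gene had several rows, the sequence accession of the annotation tells them apart, as in H2-Q5 X16203.

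Class I molecules are a heavy chain paired with beta-2 microglobulin. They carry peptides of cytosolic proteins to the surface of nearly all cells, after the TAP transporter has moved these peptides into the endoplasmic reticulum. Class II molecules are pairs of an alpha and a beta chain that carry peptides from the endosome, mostly in dendritic cells, macrophages and B cells, and they travel with the invariant chain Cd74. Most of these genes lie together in the H2 complex. C57BL/6J carries the b haplotype of this complex and DBA/2J the d haplotype, and the alleles of the classical genes differ in sequence.

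Each of the 18 glass arrays was hybridised with DBA/2J RNA in Alexa Fluor 647 and C57BL/6J RNA in Alexa Fluor 555, with 6 arrays per tissue and no dye swap. The RNA was total RNA of the whole organ. Brain and kidney RNA came from pools of 10 mice per strain, and liver RNA from pools of 9. Both are inbred, and the labels name no treatment, genotype, age or sex. The 6 hybridisations of a tissue used RNA of the same pools, so p-values measure the spread between hybridisations and not between mice. A dye effect that is constant for a spot cannot be told apart from a strain effect. In whole tissue, fewer cells of a type and less RNA per cell cannot be told apart either. The same holds for the amount of RNA and how well each strain's allele binds a spot, since no spot sequence was checked.

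Values are log2 ratios of DBA/2J over C57BL/6J, so a positive value is a higher signal in DBA/2J. This direction is likely and not stated outright: it rests on the order of the dyes in the labels. H2-Ea bears on it, since C57BL/6J is known to lack H2-Ea transcripts. The normalised H2-Ea ratio was above 0 on 17 of the 18 arrays. The spot was dim in brain and liver, and the arrays of a tissue share pools, so these are not 18 independent readings. In the deposited values, whose array medians are not at 0, the brain and liver means of H2-Ea were below 0. All 14 class II rows, H2-Ea among them, were then lower in both tissues at an adjusted p under 0.05 in limma. In kidney 0 of the 14 were then higher at that threshold, so H2-Ea bears on the direction only after the normalisation made here. Spots of the tissues' own marker lists were bright in their own tissue, with a median intensity percentile of 90.7 for brain genes in brain, 96.6 for kidney genes in kidney and 99.4 for liver genes in liver. Across rows, the mean correlation (Pearson's r) between the normalised ratios of arrays of the same tissue was lowest in brain, at 0.382, and stood at 0.620 in kidney and 0.470 in liver. Errors are SDs over 6 arrays, and a row was called where limma's adjusted p was under 0.05. The number of arrays limits the precision of each mean.

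Promoter sequences of 6 members are shown because their rows carry the main comparisons. These members are H2-K1, H2-D1 and H2-Q10, class I genes lower in liver, B2m, higher there, and the class II chains H2-Aa and H2-Eb1. H2-Aa belongs to the A molecule and H2-Eb1 to the E molecule. The sequences are from RefSeq, build GRCm38.p6, and read 5′ to 3′ on the gene's strand. Each runs from 250 bases before the annotated start to 50 bases after it. The reference is the C57BL/6J genome. The table held a promoter for 28 of the 39 genes, and H2-Ea and H2-Ab1 are named only. Capitals mark 3 motifs, searched on both strands: the Y box CTGATTGG, the enhancer A core GGGATTCCC, and GAAANNGAA, a core of interferon response elements.
H2-K1, chr17:34000298-34000597, minus strand: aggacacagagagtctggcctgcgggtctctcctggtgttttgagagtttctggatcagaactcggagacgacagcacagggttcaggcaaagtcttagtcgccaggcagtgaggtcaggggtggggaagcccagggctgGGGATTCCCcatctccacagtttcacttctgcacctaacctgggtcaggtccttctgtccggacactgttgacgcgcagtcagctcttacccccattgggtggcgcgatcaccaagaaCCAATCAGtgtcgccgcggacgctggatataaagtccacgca
H2-D1, chr17:35262844-35263143, plus strand: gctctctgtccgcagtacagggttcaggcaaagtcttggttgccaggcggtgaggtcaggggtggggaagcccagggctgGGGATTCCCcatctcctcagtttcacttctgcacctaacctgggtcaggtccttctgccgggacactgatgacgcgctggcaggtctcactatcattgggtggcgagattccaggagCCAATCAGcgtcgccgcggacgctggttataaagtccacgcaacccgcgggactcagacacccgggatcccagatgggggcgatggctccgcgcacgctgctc
H2-Q10, chr17:35469839-35470138, plus strand: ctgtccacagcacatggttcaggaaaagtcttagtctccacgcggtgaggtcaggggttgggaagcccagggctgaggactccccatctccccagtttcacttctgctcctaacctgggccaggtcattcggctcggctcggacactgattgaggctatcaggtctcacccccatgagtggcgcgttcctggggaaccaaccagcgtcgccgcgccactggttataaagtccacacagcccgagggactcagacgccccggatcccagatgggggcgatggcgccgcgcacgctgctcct
B2m, chr2:122147437-122147736, plus strand: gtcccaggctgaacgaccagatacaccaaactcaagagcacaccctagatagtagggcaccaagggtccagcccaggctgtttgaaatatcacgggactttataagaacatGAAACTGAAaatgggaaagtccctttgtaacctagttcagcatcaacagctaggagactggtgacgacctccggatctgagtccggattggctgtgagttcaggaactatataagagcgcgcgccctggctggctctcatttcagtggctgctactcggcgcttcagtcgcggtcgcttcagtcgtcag
H2-Aa, chr17:34287774-34288073, minus strand: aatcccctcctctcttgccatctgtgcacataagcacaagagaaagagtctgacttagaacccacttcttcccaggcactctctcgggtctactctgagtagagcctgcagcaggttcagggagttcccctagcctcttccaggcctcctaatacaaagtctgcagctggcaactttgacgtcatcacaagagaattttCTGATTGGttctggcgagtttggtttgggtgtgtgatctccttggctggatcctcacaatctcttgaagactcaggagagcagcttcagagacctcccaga
H2-Eb1, chr17:34305617-34305916, plus strand: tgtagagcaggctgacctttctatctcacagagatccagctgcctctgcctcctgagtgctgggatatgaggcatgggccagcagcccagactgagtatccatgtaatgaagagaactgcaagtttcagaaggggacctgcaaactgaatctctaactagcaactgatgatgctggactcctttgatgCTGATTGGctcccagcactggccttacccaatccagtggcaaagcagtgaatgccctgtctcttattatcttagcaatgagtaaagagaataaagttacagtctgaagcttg
H2-K1, with 2 entries in the table, and H2-D1 hold the enhancer A core and a Y box read on the opposite strand (CCAATCAG), and the matches shown do not overlap. In the H2-K1 entry shown, the Y box lies after the annotated start, while in H2-D1 it begins 53 bases before it. The enhancer A core was found in 0.353% of the 32851 promoters of the table and, among members, in H2-K1, H2-D1 and H2-Q7. The Y box was found in 4.10% of all promoters, in 5 of 10 class I genes and in 4 of 8 class II genes, H2-Aa and H2-Eb1 among them. GAAANNGAA, in 8.56% of all promoters, was found in B2m, Ctss and Erap1 and in no class I or class II chain. Only this pattern was searched, so class I and class II promoters may hold other forms of such elements. TATAAA, in 13.6% of all promoters and not marked here, was found in 6 of 10 class I genes and in 0 of 8 class II genes. It too lies after the annotated start in the H2-K1 entry shown, and begins 26 bases before it in H2-D1. H2-Q10 held none of the marked motifs, which says only that these letters are not in this window.

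Over all members, 7 of 47 rows were called in brain (14.9%), against 13.6% of all rows tested. In kidney 20 of 47 were called (42.6%), against 38.4% of all rows. In liver 19 of 47 were called (40.4%), against 23.3% of all rows, and 17 of these 19 were lower in DBA/2J. The brain and kidney shares were near the background. In simulated data with 200 changed rows per tissue, 5.07% of unchanged rows were called in kidney, 0.046% in brain and 0.097% in liver. A kidney call thus carries less weight than its adjusted p says. How many of the kidney calls made here are false was not estimated. By direction, 4 were higher and 3 lower in brain, and 10 were higher and 10 lower in kidney. H2-Eb1 and H2-M2 were called in all 3 tissues, both lower in each. Another 11 rows were called in 2 tissues, 18 in 1 tissue and 16 in none. H2-D1, H2-K2 M27134, H2-Q10 and B2m were called in opposite directions in 2 tissues.

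**Figure D1:**
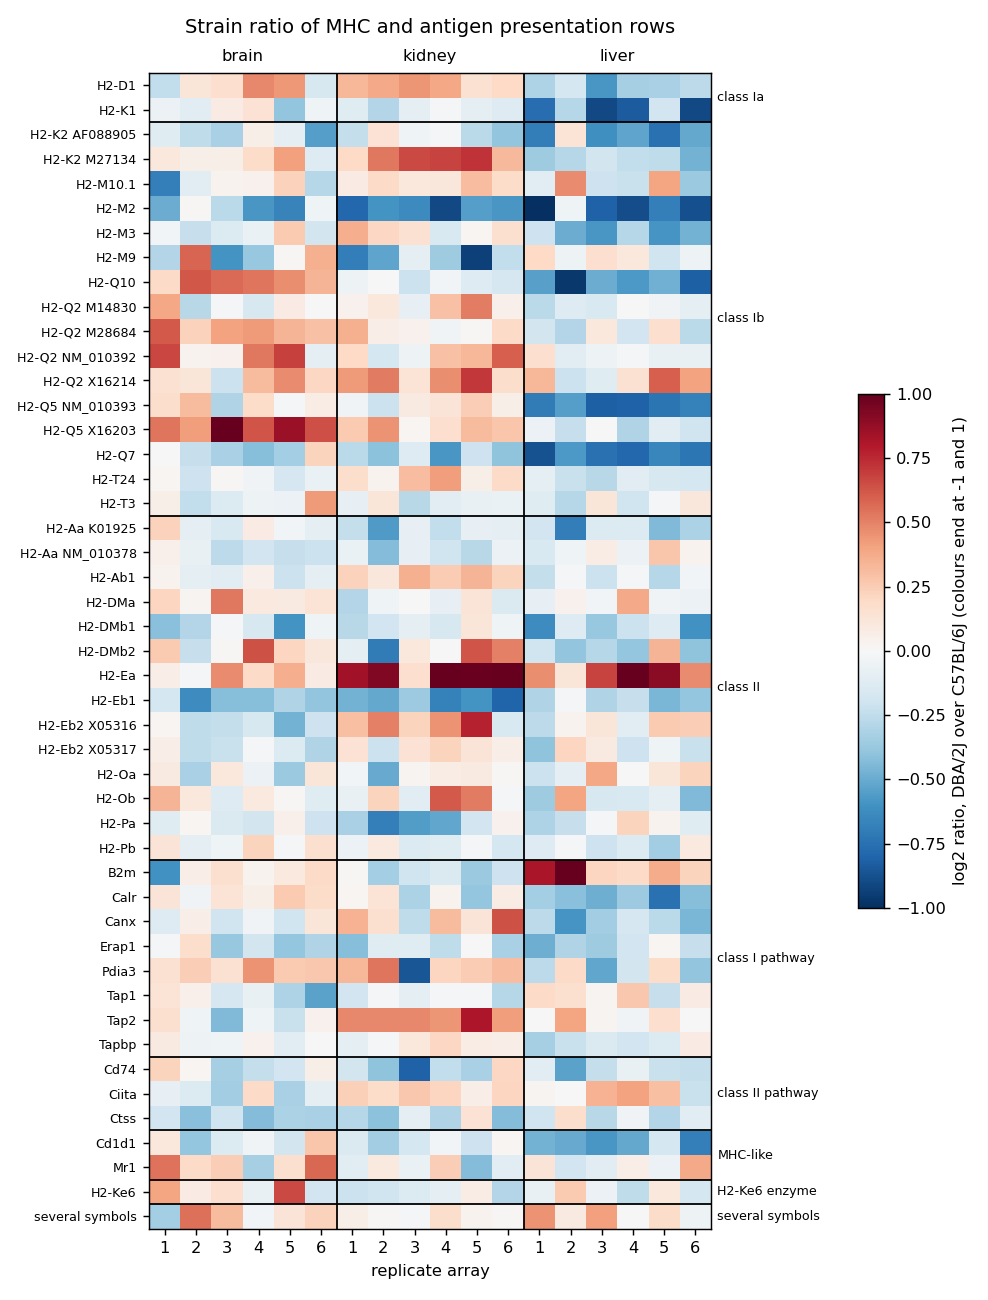
Normalised log2 ratio of DBA/2J over C57BL/6J for each of the 47 member rows (vertical) on each of the 18 arrays (horizontal, 6 per tissue). Red is higher and blue lower in DBA/2J, with colours ending at -1 and 1. Blue fills much of the class I block in liver, where 9 of 18 rows were lower and 0 higher, while H2-Ea is red in kidney and liver.

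Rows past both the threshold and 1.5-fold numbered 1 in brain, 2 in kidney and 6 in liver, against 1.8%, 4.08% and 2.4% of all rows. In brain this was H2-Q5 X16203. In kidney these were H2-Ea, higher, and H2-M2, lower. In liver H2-Ea was higher, and H2-K1, H2-Q10, H2-Q7, H2-Q5 NM_010393 and H2-M2 were lower.

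Class I heavy chains were lower in DBA/2J liver: 9 of 18 rows were called lower and 0 higher. At an unadjusted p under 0.05 in limma, 11 were lower and 0 higher. Among all rows, 12.3% were lower and 11% higher in liver. The median of the 18 class I rows was -0.24 in liver, against 0.0013 for all rows. In brain 3 class I rows were higher and 1 lower, against 7.37% and 6.23% of all rows, and the median was 7.23e-05. In kidney 5 were higher and 3 lower, against 19.3% and 19.1% of all rows, and the median was 0.12. Class I rows were bright in liver, and 16 of the 18 lay above the 80th percentile of intensity. Above that percentile 17.8% of all rows were called lower and 17.99% higher. Class I genes are near-identical in long stretches, so which gene a spot measured is uncertain and the class I rows are not independent of each other.

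The classical class I genes H2-K1 and H2-D1 encode the heavy chains that present peptides to CD8 T cells. In liver the H2-K1 row ranged from -0.91 through a median of -0.79 to -0.19. All 6 arrays were below 0, with arrays 2 and 5 nearest to 0. The mean was -0.65 ± 0.32 (SD, n = 6), 1.56-fold lower, with an adjusted p of 0.00113 in limma. In brain H2-K1 ranged from -0.40 through -0.049 to 0.14, and in kidney from -0.29 through -0.11 to -0.016. Neither mean was called, at -0.062 ± 0.19 in brain (adjusted p = 0.651) and -0.13 ± 0.092 in kidney (adjusted p = 0.142). The H2-K1 spot was at the 97.9th percentile of intensity in liver, the 27.0th in brain and the 18.1st in kidney.

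H2-D1 was bright in all 3 tissues, at the 94.3rd percentile or above. Its liver ratio ranged from -0.58 through -0.32 to -0.17, and its kidney ratio from 0.15 through 0.36 to 0.44. The liver and kidney arrays did not overlap. The kidney mean was 0.32 ± 0.11, 1.24-fold higher (adjusted p = 0.00228), and the liver mean -0.33 ± 0.14, 1.26-fold lower (adjusted p = 0.00623). In brain the arrays ran from -0.24 to 0.48 on both sides of 0, with a mean of 0.13 ± 0.30 (adjusted p = 0.408). Without the intensity-dependent normalisation, with only the median of each array set to 0, the kidney mean was 1.26 and the liver mean -0.15, no longer called (adjusted p = 0.238).

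Among the class Ib rows, H2-Q10 had the largest difference between tissues of any member. H2-Q10 encodes a class I molecule secreted into serum, mainly by the liver. In liver its ratio ranged from -0.97 through -0.56 to -0.48, and in brain from 0.19 through 0.50 to 0.62. Every brain array lay above 0 and every liver array below. The liver mean was -0.65 ± 0.20, 1.57-fold lower (adjusted p = 0.000215), and the brain mean 0.45 ± 0.16, 1.37-fold higher (adjusted p = 0.00368). The kidney mean was -0.098 ± 0.085 and was not called (adjusted p = 0.248). The spot was at the 96.7th percentile in brain.

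H2-Q7, a gene of the Qa-2 antigen, was lower in liver and kidney. Its liver ratio ranged from -0.87 through -0.74 to -0.57, with a mean of -0.73 ± 0.10, 1.65-fold lower (adjusted p = 2.65e-05). Its kidney ratio ranged from -0.58 through -0.34 to -0.13, with a mean of -0.33 ± 0.16 (adjusted p = 0.00268). All arrays of both tissues were below 0, and the groups overlapped only at the edge. In brain the mean was -0.18 ± 0.25 and was not called (adjusted p = 0.199). With only the median of each array set to 0, the kidney mean of H2-Q7 was -0.23 and lost its call (adjusted p = 0.0752).

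The 2 rows named H2-Q5 had ratios of the same sign in each tissue but of different size, and the difference between the rows was not tested. In liver NM_010393 ranged from -0.82 through -0.71 to -0.55, and X16203 from -0.30 through -0.16 to 0.0038. The first was 1.64-fold lower, at -0.71 ± 0.097 (adjusted p = 2.73e-05), and the second was not called, at -0.15 ± 0.11 (adjusted p = 0.126). In brain X16203 was the called row: it ranged from 0.42 through 0.64 to 1.01 and was 1.61-fold higher, at 0.68 ± 0.22 (adjusted p = 0.000694). NM_010393 in brain lay on both sides of 0, at 0.072 ± 0.22 (adjusted p = 0.612). In kidney X16203 was higher, at 0.25 ± 0.14 (adjusted p = 0.0124), and NM_010393 was at 0.046 ± 0.16 (adjusted p = 0.643). Neither spot was checked against a sequence.

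H2-K2 likewise had 2 rows. M27134 ranged from 0.20 through 0.59 to 0.72 in kidney, all above 0, and from -0.47 through -0.27 to -0.19 in liver, all below 0. Its means were 0.52 ± 0.21 in kidney (adjusted p = 0.000214) and -0.30 ± 0.10 in liver (adjusted p = 0.00749). AF088905 was lower in liver too, at -0.49 ± 0.32 (adjusted p = 0.00541), where array 2 stood apart at 0.13 and the others lay between -0.75 and -0.51. In kidney it was at -0.14 ± 0.20 (adjusted p = 0.177). Of the 4 rows named H2-Q2, M28684 was higher in brain at 0.38 ± 0.13 and X16214 in kidney at 0.41 ± 0.22, and 0 of 4 were called in liver.

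The H2-M genes encode non-classical class I chains. H2-M2 was lower in all 3 tissues. Its ratio ranged from -0.67 through -0.38 to 0.012 in brain, from -0.90 through -0.62 to -0.55 in kidney, and from -1.25 through -0.84 to -0.045 in liver. In brain 5 of 6 arrays and in kidney and liver all arrays were below 0. Means were -0.34 ± 0.29 in brain (adjusted p = 0.0376), -0.67 ± 0.14 in kidney (1.60-fold, adjusted p = 7.65e-06) and -0.76 ± 0.40 in liver (1.69-fold, adjusted p = 0.00103). H2-M3, which presents N-formylated bacterial peptides, was lower in liver at -0.44 ± 0.16 (adjusted p = 0.00161) and was not called in brain (-0.063 ± 0.18) or kidney (0.13 ± 0.18). The brain call of H2-M2 ended without array 1, 3, 4 or 5, at means of -0.36 to -0.28. H2-M9 was lower in kidney at -0.47 ± 0.31 (adjusted p = 0.00161). H2-T24 was higher in kidney at 0.20 ± 0.15 (adjusted p = 0.0392), a call that ended without array 1, 3, 4 or 6, at means of 0.15 to 0.20. H2-M10.1, H2-T3 (the thymus leukaemia antigen), H2-Q2 M14830 and H2-Q2 NM_010392 were called in no tissue, with means between -0.13 and 0.31.

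**Figure D2:**
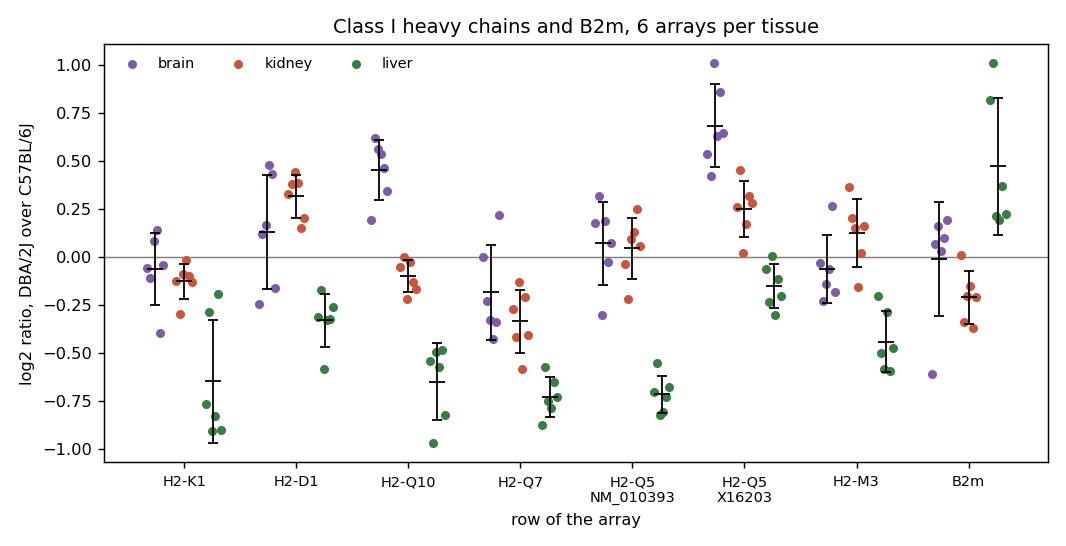
Normalised log2 ratio of DBA/2J over C57BL/6J on each array (points, 6 per tissue) for 7 class I rows and B2m. Black bars are the mean and SD over the arrays of a tissue. The liver points of H2-K1, H2-D1, H2-Q10, H2-Q7, H2-Q5 NM_010393 and H2-M3 are all below 0, and those of B2m are all above it.

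Differences between tissues were tested in a fit of all 18 arrays. Over all members, the ratio of 2 rows was higher and of 7 lower in brain than in kidney, against 21.4% of all rows called in either direction. Between brain and liver 11 were higher in brain and 1 lower, against 7.54% of all rows, and between kidney and liver 14 were higher in kidney and 2 lower, against 16.9%. Rows that also differed by 1.5-fold numbered 2, 3 and 4 in these comparisons, against 4.99%, 2.51% and 4.69% of all rows. The ratio of 9 class I rows was higher in brain than in liver and that of 0 was lower (12 and 0 at an unadjusted p under 0.05 in limma), while 4.26% of all rows were higher and 3.28% lower. Between kidney and liver 9 class I rows were higher in kidney and 1, H2-M9, was lower, against 9.57% and 7.3% of all rows. Between brain and kidney 2 class I rows were higher in brain and 2 lower, against 11% and 10.3% of all rows. Each tissue's arrays enter 2 of these comparisons, so they share samples. The calls of H2-M3 between brain and liver (0.31 to 0.38), H2-T24 between brain and kidney (-0.25 to -0.23) and H2-M9 between kidney and liver (-0.49 to -0.41) ended without each of 5, 4 and 6 of the 12 arrays.

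H2-Q10 differed between brain and liver by 1.10 ± 0.10 (SE, adjusted p = 1.08e-07). For the H2-Q5 rows the same difference was 0.83 ± 0.10 (X16203, adjusted p = 9.24e-06) and 0.79 ± 0.11 (NM_010393, adjusted p = 1.99e-05). No brain array of these 3 rows overlapped a liver array. H2-D1 differed between kidney and liver by 0.64 ± 0.12 (adjusted p = 0.000313), and H2-K2 M27134 by 0.82 ± 0.11 (adjusted p = 5.23e-06). H2-K1 differed between kidney and liver by 0.52 ± 0.12 (adjusted p = 0.0046) and by -0.050 with only the median of each array set to 0. H2-Q10 was higher in brain than in kidney by 0.55 ± 0.10 (adjusted p = 0.000479), and lower by 0.076 with only the median of each array set to 0. With the intensity left unrestored, that is, read from the reduced whole numbers of each ratio, an alternative chosen after seeing the data, the calls of H2-K1 between kidney and liver and of H2-Q10 between brain and kidney ended.

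Class II chains showed no common direction. In brain 0 of 14 rows were higher and 1 lower (2 and 3 at an unadjusted p under 0.05 in limma), in kidney 3 were higher and 3 lower, and in liver 1 was higher and 3 lower. Of all rows, 13.6% were called in brain, 38.4% in kidney and 23.3% in liver in either direction, and the class II counts lie near these shares in kidney and liver. Medians of the 14 rows were -0.072 in brain, -0.060 in kidney and -0.11 in liver. H2-Ea and H2-Eb1, which encode the alpha and the beta chain of the same E molecule, had opposite ratios.

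H2-Ea ranged from 0.17 through 0.96 to 1.07 in kidney, from 0.12 through 0.57 to 1.09 in liver and from -0.0086 through 0.14 to 0.47 in brain. In kidney array 3 was at 0.17 and the other arrays were between 0.84 and 1.07. The means were 0.84 ± 0.34 in kidney (1.79-fold higher, adjusted p = 3.03e-05) and 0.62 ± 0.35 in liver (1.54-fold higher, adjusted p = 0.00199). In brain the mean of 0.20 ± 0.19 was not called (adjusted p = 0.129). Without array 3 the kidney mean was 0.97. The spot was dim, at the 4.46th percentile of intensity in liver, the 6.74th in brain and the 31.8th in kidney. H2-Ea was lower in brain than in kidney by 0.64 ± 0.15 (adjusted p = 0.00396), and its brain and liver ratios differed by -0.42 ± 0.15 (adjusted p = 0.0943).

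H2-Eb1 was lower in every tissue. Its ratio ranged from -0.63 through -0.41 to -0.18 in brain, from -0.80 through -0.55 to -0.36 in kidney and from -0.46 through -0.30 to -0.020 in liver. All 18 arrays were below 0. Means were -0.39 ± 0.15 in brain (1.31-fold, adjusted p = 0.00695), -0.57 ± 0.16 in kidney (1.48-fold, adjusted p = 4.20e-05) and -0.28 ± 0.15 in liver (1.22-fold, adjusted p = 0.0150). The kidney mean differed from the liver mean by -0.28 ± 0.10 (adjusted p = 0.0547), short of the threshold. H2-Eb2 X05316, another beta chain, was higher in kidney at 0.35 ± 0.31 (adjusted p = 0.0112), and H2-Eb2 X05317 was called in no tissue.

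The A molecule is encoded by H2-Aa and H2-Ab1. H2-Ab1 ranged from 0.11 through 0.24 to 0.36 in kidney, all above 0, and from -0.28 through -0.12 to -0.020 in liver, all below 0. It was higher in kidney at 0.25 ± 0.089 (adjusted p = 0.00717), and was not called in liver (-0.13 ± 0.12, adjusted p = 0.178) or brain (-0.070 ± 0.10, adjusted p = 0.543). Its kidney and liver ratios differed by 0.39 ± 0.089 (SE, adjusted p = 0.00335). H2-Aa K01925 ranged from -0.57 through -0.17 to -0.080 in kidney and from -0.69 through -0.25 to -0.13 in liver, with all 12 arrays below 0. It was called lower in both, at -0.22 ± 0.19 (adjusted p = 0.0345) and -0.32 ± 0.22 (adjusted p = 0.0162), and stood at -0.0099 ± 0.14 in brain. Its kidney call ended without array 1, 2 or 4, at means of -0.21 to -0.15. Its kidney mean was 0.53 with only the median of each array set to 0, the opposite direction, and its liver call then ended. H2-Aa NM_010378 was called in no tissue, with means of -0.15 ± 0.12, -0.19 ± 0.15 and 0.021 ± 0.15 in brain, kidney and liver.

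Of the remaining class II chains, those of DM and O serve peptide loading, and H2-Pa and H2-Pb are not among these. H2-DMa and H2-DMb1 form the DM molecule, which exchanges the invariant chain remnant for a peptide, and H2-Oa and H2-Ob form its inhibitor. H2-DMb1 was lower in liver at -0.35 ± 0.23 (adjusted p = 0.0125), with all 6 arrays below 0. H2-Pa was lower in kidney at -0.37 ± 0.27 (adjusted p = 0.00473). H2-DMa, H2-DMb2, H2-Oa, H2-Ob and H2-Pb were called in no tissue, with means between -0.22 and 0.19.

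**Figure D3:**
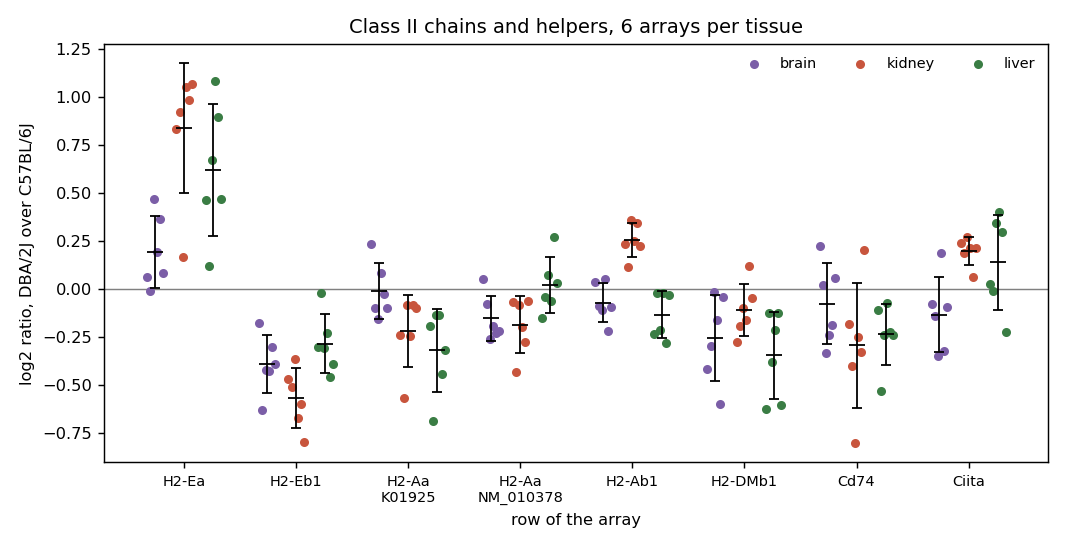
Normalised log2 ratio of DBA/2J over C57BL/6J on each array (points, 6 per tissue) for 6 class II rows and the helpers Cd74 and Ciita. Black bars are the mean and SD over the arrays of a tissue. H2-Ea lies above 0 in kidney and liver and H2-Eb1 below 0 in every tissue, and 1 kidney array of H2-Ea at 0.17 stands apart.

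On each array the median of the class I rows was set against that of the class II rows, as a description with no test. In liver the class I median was below the class II median on all 6 arrays, by 0.0097 to 0.24. It was -0.25 ± 0.044 (mean ± SD over arrays) for class I and -0.096 ± 0.073 for class II. In brain the class I median was above on 5 of 6 arrays, at 0.049 ± 0.067 against -0.052 ± 0.075. In kidney it was above on 5 of 6 arrays, at 0.056 ± 0.042 against -0.043 ± 0.10. With 1 loess curve per array in place of 1 per block of spots, the medians of the kidney row means were 0.113 for class I and 0.108 for class II.

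**Figure D4:**
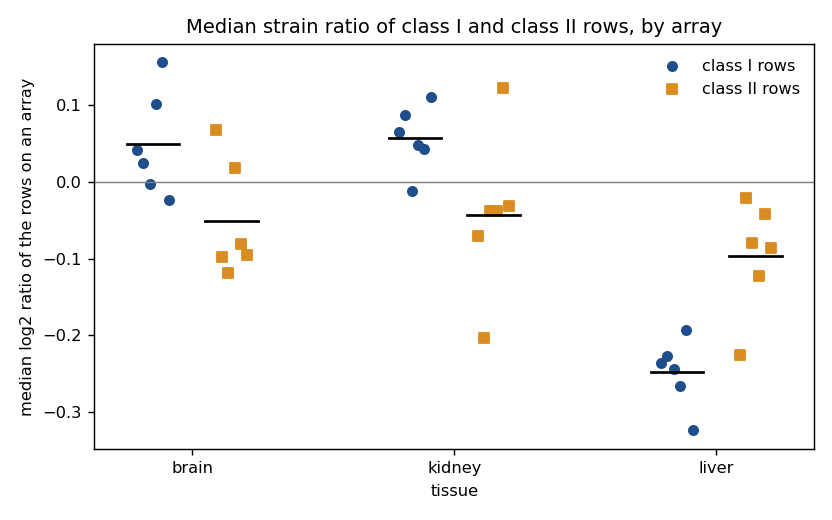
Median normalised log2 ratio of the 18 class I rows (circles) and the 14 class II rows (squares) on each array, by tissue. Black lines are means over 6 arrays. Class I medians lie between -0.32 and -0.19 in liver, below the range of -0.023 to 0.15 in brain.

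Beta-2 microglobulin, the light chain that every classical class I molecule needs, did not follow the heavy chains in liver. B2m ranged there from 0.19 through 0.30 to 1.01, with all 6 arrays above 0 and arrays 1 and 2 the highest. The mean was 0.47 ± 0.35, 1.39-fold higher (adjusted p = 0.00949), at the 99.7th percentile of intensity. In kidney B2m ranged from -0.37 through -0.20 to 0.0091, at -0.21 ± 0.14 (adjusted p = 0.0287). That call ended without array 2, 4, 5 or 6, at means of -0.22 to -0.18. With only the median of each array set to 0 the kidney mean was 0.56, in the opposite direction, while the liver mean was 0.51. In brain B2m was at -0.0094 ± 0.30, where array 1 stood apart at -0.61 and the other arrays ran from 0.033 to 0.19. The ratio in kidney was below that in liver by 0.68 ± 0.14 (adjusted p = 0.00169), and was above it by 0.051 with only the median of each array set to 0. The brain ratio was below the liver ratio by 0.48 ± 0.14 (adjusted p = 0.0401). This call ended with the replicate number as a block (adjusted p = 0.0704) and without brain array 1, 2, 4 or 5 or liver array 1 or 2, at differences of -0.50 to -0.36.

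Of the other class I helpers, calreticulin, calnexin and the peptide trimmer Erap1 were lower in liver. Calreticulin (Calr), a lectin chaperone of the peptide-loading complex, ranged from -0.74 through -0.42 to -0.34, with all arrays below 0, and was 1.38-fold lower at -0.46 ± 0.15 (adjusted p = 0.000986). Calnexin (Canx), the membrane-bound lectin chaperone, was lower at -0.35 ± 0.15 (adjusted p = 0.00544), and Erap1, which trims peptides, at -0.26 ± 0.17 (adjusted p = 0.0265). Canx and Erap1 lost the call with only the median of each array set to 0, at -0.24 (adjusted p = 0.121) and -0.21 (adjusted p = 0.116). The Erap1 call ended without array 1, 3, 4 or 6, at means of -0.27 to -0.21. In kidney Erap1 was called lower at -0.21 ± 0.16 (adjusted p = 0.0348), which ended without array 1, 4 or 6, at means of -0.20 to -0.16. Calr was higher in brain than in liver by 0.58 ± 0.11 (adjusted p = 0.000674) and in kidney than in liver by 0.39 ± 0.11 (adjusted p = 0.0116). Pdia3, a thiol oxidoreductase of the same complex, was higher in brain at 0.26 ± 0.11 (adjusted p = 0.0336), which ended without array 2, 4, 5 or 6, at means of 0.22 to 0.26. In kidney Pdia3 was not called, at 0.13 ± 0.49, where array 3 was at -0.85 and the others between 0.22 and 0.54. Nor was it called in liver, at -0.16 ± 0.30.

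Of the TAP transporter subunits, Tap1 was called in no tissue, with means between -0.15 and 0.082. Tap2 ranged from 0.42 through 0.48 to 0.81 in kidney, all above 0, and was 1.43-fold higher at 0.52 ± 0.14 (adjusted p = 7.68e-05). Its kidney spot was dim, at the 8.84th percentile, and with only the median of each array set to 0 its mean was -0.20 (adjusted p = 0.112). Tap2 was not called in brain (-0.093 ± 0.21) or liver (0.092 ± 0.16). Tapasin (Tapbp), which tethers class I molecules to the transporter, was called in no tissue, with means between -0.16 and 0.057. Over the 8 class I helper rows, 1 was higher and 0 lower in brain (1 and 0 at an unadjusted p under 0.05 in limma), 1 higher and 2 lower in kidney, and 1 higher and 3 lower in liver. The kidney count is at the share of all rows called there, 38.4%, and the liver share of all rows was 23.3%.

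The class II helpers are the invariant chain Cd74, the protease cathepsin S (Ctss), which degrades that chain, and Ciita, the coactivator of class II transcription. Cd74 ranged from -0.80 through -0.29 to 0.20 in kidney and from -0.53 through -0.23 to -0.075 in liver. It was called lower in both, at -0.29 ± 0.33 (adjusted p = 0.0315) and -0.24 ± 0.16 (adjusted p = 0.0357), and was at -0.077 ± 0.21 in brain. In kidney 5 of 6 and in liver all arrays were below 0. With only the median of each array set to 0, its kidney mean was 0.065 and its liver mean -0.18 (adjusted p = 0.135). Ctss was lower in brain at -0.31 ± 0.10 (adjusted p = 0.0136), with all 6 arrays below 0, and in kidney at -0.23 ± 0.22 (adjusted p = 0.0378). With only the median of each array set to 0 these means were -0.19 (adjusted p = 0.208) and 0.32. Ciita was higher in kidney at 0.20 ± 0.072 (adjusted p = 0.0243), with all 6 arrays above 0. The kidney calls of Cd74 (-0.30 to -0.19), Ctss (-0.22 to -0.19) and Ciita (0.18 to 0.20) each ended without any of 4 arrays: 2, 3, 4 or 5 for Cd74, 1, 2, 4 or 6 for Ctss, and 1, 3, 4 or 6 for Ciita. The liver call of Cd74 (-0.24 to -0.18) ended without array 2, 3, 5 or 6, and the brain call of Ctss (-0.29) without array 4.

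Outside the complex, Cd1d1, which presents lipids to natural killer T cells, was lower in liver. It ranged there from -0.68 through -0.51 to -0.18, 1.40-fold lower at -0.49 ± 0.17 (adjusted p = 0.000934). It was not called in brain (-0.059 ± 0.23) or kidney (-0.15 ± 0.13). Mr1, which presents vitamin B metabolites of microbes, was called in no tissue, with means between -0.062 and 0.23. Neither was H2-Ke6 (means between -0.14 and 0.17) or the row with several symbols (means between 0.045 and 0.18).

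**Figure D5:**
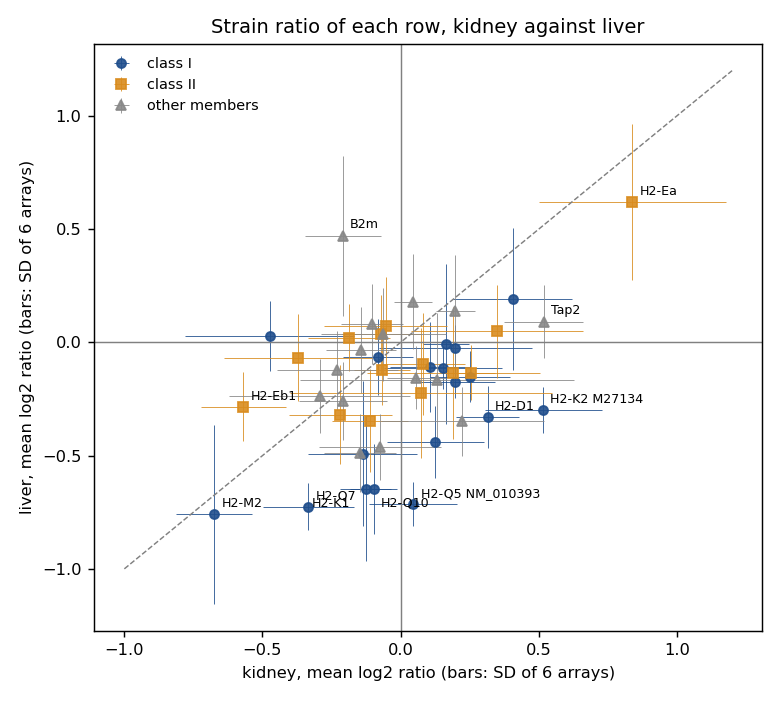
Mean normalised log2 ratio of each of the 47 member rows in kidney (horizontal) and liver (vertical), with SDs over 6 arrays as bars. The dashed line marks equal ratios. Class I rows (circles) such as H2-D1 and H2-K2 M27134 lie right of 0 in kidney and below 0 in liver, H2-Ea lies at 0.84 and 0.62, and B2m at -0.21 and 0.47.

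Lists of related genes were counted in the same fits, in which 13.6% of all rows were called in brain, 38.4% in kidney and 23.3% in liver. Of 6 immunoproteasome and proteasome activator rows, which cut and feed peptides to class I, 0 were called in brain (1 at an unadjusted p under 0.05 in limma). In kidney Psmb9 was lower (-0.41 ± 0.26) and Psme1 higher (0.29 ± 0.31), and in liver Psme3 was lower (-0.35 ± 0.18). Of 26 interferon response rows, 2 were higher and 0 lower in brain (4 and 5 at an unadjusted p under 0.05 in limma), from Igtp at 0.35 ± 0.33 to Mx2 at 0.30 ± 0.22. In kidney 3 were higher and 7 lower, from Irf7 at 0.40 ± 0.15 to Isg15 at -0.53 ± 0.31, and in liver 1 was higher and 4 lower, from Igtp at 0.26 ± 0.15 to Ifit2 at -0.42 ± 0.19. The interferon count in kidney is at the share of all rows, 38.4%. The list medians were -0.080 in brain, -0.086 in kidney and -0.049 in liver.

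Of 15 rows for class II transcription and endosomal processing, 2 were higher and 0 lower in brain (3 and 0 at an unadjusted p under 0.05 in limma), from Rfx5 at 0.41 ± 0.39 to Ctsl at 0.25 ± 0.14. In kidney 5 were higher and 2 lower, from Ctsb at 0.62 ± 0.29 to Ctsd at -0.56 ± 0.23. In liver 3 were higher and 0 lower (3 and 0 unadjusted), from Creb1 at 1.08 ± 0.72 to Ctsl at 0.23 ± 0.17. Of all rows, 38.4% were called in kidney and 23.3% in liver. Rfx5, part of the complex that binds class II promoters, was higher in brain and kidney (0.45 ± 0.30).

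Of 44 rows of class III genes and other neighbours within the H2 complex, 5 were higher and 4 lower in brain. In kidney 14 were higher and 4 lower, and in liver 5 and 5. With both directions together, these kidney and liver counts lie near the shares of all rows, 38.4% in kidney and 23.3% in liver. By direction the kidney count was uneven. The higher rows (14 of 44) lie above the share of all rows, 19.3%, and the lower rows (4 of 44) below it, 19.1%. The list median in kidney was 0.093, and the reason was not tested. The extremes were Neu1 at 0.79 ± 0.20 and Ltb at -0.47 ± 0.32 in brain, Bag6 at 0.56 ± 0.26 and Hspa1a at -0.39 ± 0.19 in kidney, and Tnf at 0.54 ± 0.44 and Cfb at -0.49 ± 0.14 in liver. The median of these neighbours in liver was -0.021, against -0.24 for the class I rows.

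Markers of the cells that carry most class II were read beside these values. Of 17 macrophage and microglia rows, 0 were higher in any tissue, and 0 were lower in brain, 5 in kidney and 2 in liver, where the list median was -0.058. At an unadjusted p under 0.05 in limma, 2 were higher and 1 lower in brain, 2 higher and 5 lower in kidney, and 0 higher and 6 lower in liver. Of 7 dendritic cell rows, 0 were called in brain (1 higher and 1 lower unadjusted) and Ccr7 was lower in kidney and liver. Of 15 B cell rows, which came from only 7 genes, 0 were higher and 1 lower in brain (1 and 2 unadjusted). In kidney 0 were higher and 4 lower (2 and 4 unadjusted), and in liver 1 and 3. Of 10 T and NK cell rows, 0 were higher and 3 lower in brain (1 and 3 unadjusted). In kidney 2 were higher and 2 lower, and in liver 1 and 1. Of 9 endothelial rows, 1 was higher and 0 lower in brain (3 and 0 unadjusted). In kidney 2 were higher and 3 lower, and in liver 1 and 0 (2 and 1 unadjusted). Among all rows, the shares called in either direction were 13.6% (brain), 38.4% (kidney) and 23.3% (liver). The macrophage counts, both directions together, lie below these shares. By direction, 19.1% of all kidney rows were lower and 19.3% higher. The lower kidney counts of macrophage rows (5 of 17) and B cell rows (4 of 15) lie above that lower share, with 0 higher in either list. The list medians in kidney were -0.064 for macrophage rows and 0.0086 for B cell rows. Rows of the same gene are not independent, so the B cell counts are not counts of separate markers. For liver the lower share of all rows was 12.3%, near the macrophage count (2 of 17) and under the B cell count (3 of 15). The part of these cell types in the class I and class II ratios was not tested.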

How the data were processed

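In the deposited table each array has 23040 spots, with a log2 ratio for each. Per the labels, signals were extracted with Spot and the ratios normalised by print-tip lowess with limma. How the background was treated, and the versions of these tools, are not stated in those labels. The deposited log2 values did not look normalised. All 391770 values used equalled, within 1e-12, the log2 of one whole number over another, and array medians ran from -1.65 to 0.16. Here they were taken as ratios of unnormalised intensities, a departure from the planned design. Spots at 0 on every array (1275, of which 232 were named Gapdh) were left out.

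From a ratio the 2 intensities are known but for a factor they share. That factor, and from it a log2 intensity per spot and tissue, was estimated by likelihood over the 6 arrays of the tissue, with array offsets that vary smoothly with intensity and an assumed SD of 0.3 (Python 3.11.15, numpy 2.4.6). Ratios were then normalised by print-tip loess against that intensity (span 0.3, 4 iterations, 48 consecutive blocks of 480 spots) in limma 3.58.1 under R 4.3.3. The way of estimating the intensity was revised 2 times after member values had been seen, to lower false calls on simulated data and to match the factor shares of random whole numbers; both earlier estimates, with an SD of 0.4, are among the alternatives. On simulated data with 200 changed rows per tissue, 85.3% of the kidney calls were unchanged rows, against 5.26% in brain and 10.1% in liver. This share depends on how many rows changed, so it does not carry over to the kidney calls made here. Still, false calls in kidney are not held to the threshold. The reason was not tested.

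Each row was tested on its own. Per tissue, the mean of 6 arrays was tested against 0 with limma's lmFit and eBayes (two-sided), and tissues were contrasted in a joint fit of the 18 arrays, with Benjamini-Hochberg adjustment over all 21765 rows and a threshold of 0.05. Gene names are from the platform annotation, which gave 16642 rows a single symbol, 134 several and 4989 none. Every member gene is named; values over the arrays are given for H2-K1, H2-D1, H2-Aa, H2-Ab1, H2-Ea, H2-Eb1, B2m, Cd74 and every row past 1.5-fold, and of other lists the rows with the highest and the lowest called ratio. Rows given over the arrays beyond these were chosen after their values were seen. The members and lists were chosen with earlier results of these data known. Alternatives were median centring only, 1 loess per array, the deposited values, scaling between arrays, averaging the spots of a gene, leaving out the dimmest 25% of spots or an array, the tissue pairs alone, the replicate block, and the other intensity estimates.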

Additional observations from a re-analysis of the deposited data

Results flagged for a closer look

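In 12 of 141 groups (47 rows in 3 tissues) a single array stood apart from the other 5 of its group; chance alone does so in about 1 of 20 groups. In brain this was array 1 for B2m (-0.61). In kidney these were array 2 for H2-Aa K01925 (-0.57), H2-Eb2 X05317 (-0.21) and H2-Oa (-0.50), array 3 for H2-Ea (0.17) and Pdia3 (-0.85), and array 5 for Tap2 (0.81). In liver these were array 1 for H2-Q2 NM_010392 (0.17), array 2 for H2-K2 AF088905 (0.13) and Cd74 (-0.53), array 4 for H2-DMa (0.38) and array 5 for H2-DMb2 (0.34). Without the array, the mean of Tap2 in kidney was 0.46, that of H2-K2 AF088905 in liver -0.62 and that of Pdia3 in kidney 0.33.

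The strain ratio of these rows differed between tissues past the threshold and by at least 1.5-fold. H2-Ea (-0.64) and Tap2 (-0.61) were lower in brain than in kidney. H2-Q10 (1.10), H2-Q5 X16203 (0.83) and H2-Q5 NM_010393 (0.79) were higher in brain than in liver. H2-D1 (0.64), H2-K2 M27134 (0.82) and H2-Q5 NM_010393 (0.76) were higher in kidney than in liver, and B2m was lower (-0.68).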

How the results depend on the processing

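With median centring only, the kidney counts moved more than those of brain and liver: 23 member rows were higher and 17 lower in kidney (10 and 10 as reported), the kidney medians were 0.52 for class I and -0.25 for class II, and the liver medians -0.14 and 0.016. The kidney ratios of H2-Aa K01925 (0.53), B2m (0.56), Tap2 (-0.20), Cd74 (0.065) and Ctss (0.32) then turned. So did the differences of H2-Q10 (-0.076), H2-Q5 X16203 (-0.33) and Tap2 (0.011) between brain and kidney, and of H2-K1 (-0.050), B2m (0.051), Tap2 (-0.24) and Cd1d1 (-0.088) between kidney and liver. Rows that differed numbered 7 higher and 18 lower between brain and kidney, 6 higher and 2 lower between brain and liver, and 11 lower between kidney and liver. The cause was not tested. In the deposited values as they are, whose array medians are not at 0, 0 rows were higher and 45 lower in brain, 6 higher and 23 lower in kidney, and 0 higher and 47 lower in liver. At an unadjusted p under 0.05 in limma, 0 rows were higher in brain and 0 in liver as well. Medians of class I and class II were then -0.92 and -0.98 in brain and 0.037 and -0.73 in kidney. In liver they were -1.25 and -1.10. H2-Q10 (-0.24), H2-Q2 M28684 (-0.45), H2-Q5 X16203 (-0.14) and Pdia3 (-0.55) in brain, H2-Aa K01925 (0.042), H2-Eb2 X05316 (-0.095), B2m (0.074) and Tap2 (-0.68) in kidney, and H2-Ea (-0.37) and B2m (-0.60) in liver turned. With 1 loess per array the kidney medians were 0.113 for class I and 0.108 for class II. The liver class II median was then -0.030. Under that setting the calls of H2-T24, H2-Aa K01925, B2m, Erap1 and Ctss in kidney and of H2-Aa K01925, Erap1 and Cd74 in liver ended.

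With the intensity left unrestored, chosen after seeing the data, H2-Aa K01925 (0.13) and Ctss (0.062) turned in kidney, the calls of H2-M9, H2-T24, H2-Ab1, B2m, Erap1, Tap2 and Cd74 in kidney, of H2-K2 M27134, Erap1 and Cd74 in liver and of Ctss in brain ended, the liver class I median was -0.18, 0 rows were lower in brain than in liver and 4 lower in kidney than in liver. Class I rows higher in brain then numbered 0 against kidney (2 as reported; 3 at an unadjusted p under 0.05 in limma) and 6 against liver (9 as reported). The differences that lost their call were those of H2-Q10, H2-Q5 X16203, H2-T24 and Tap2 between brain and kidney, of H2-D1, H2-K2 M27134, H2-M3 and B2m between brain and liver, and of H2-K1, H2-M9, H2-Q7, Tap2 and Cd1d1 between kidney and liver. With the first and the second intensity estimate, also added after seeing the data, 5 and 6 rows were higher in brain than in kidney and 4 and 4 lower in kidney than in liver. Under the first, H2-T24, H2-Aa K01925, Cd74, Ciita and Ctss in kidney and Cd74 in liver missed the threshold, and under the second Erap1, Cd74 and Ctss in kidney. Averaging spots gave a liver class I median of -0.40, and leaving out the dimmest 25% gave 0.072 in brain, -0.30 in liver and 1 row higher in liver. Replicate numbers did not pair arrays: same-numbered arrays deviated together with r from -0.23 to 0.16, over 0.1 in 2 of 18 pairs. With the replicate block, as with the 12 arrays of 2 tissues, 0 rows were lower in brain than in liver (B2m alone as reported, at an adjusted p of 0.0704 with the block; 4 rows at an unadjusted p under 0.05 in limma under either), and the block ended no other called difference. Leaving out 1 array gave 1 to 3 rows lower in brain, 5 to 9 lower in kidney, kidney class I medians of 0.070 to 0.13, 2 to 5 rows higher in brain than in kidney, 0 to 1 lower in brain than in liver and 1 to 3 lower in kidney than in liver. In liver every called class I row kept its call and direction without each array in turn.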
